A study of Mus musculus with 2 samples.

Results

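Gm10800, Gm10801 and Gm10717 are predicted mouse genes with very high DNase I signal in M1 cells, and they lie in satellite-rich stretches of chromosomes 2 and 9. These 3 genes were chosen by their mean signal in both libraries of the deposited table. All other rows with a Gm name on chromosome 9 that end below 3200000, or on chromosome 2 that start between 98.4 and 98.6 Mb, were added by position alone. The rule gave 14 of 22605 listed genes, 2 on chromosome 2 and 12 on chromosome 9. Each is listed with 1 transcript, and together they touch 36 of 1202248 windows, with 1 window shared by the neighbors Gm10720 and Gm10719. All signal values of these genes are given as a description, because the choice rested on the same signal.

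DHS-seq, which reads short DNA fragments cut out of open chromatin by DNase I, was performed once on untreated M1 cells and once after differentiation with the cytokine IL-6. M1 is a mouse myeloid leukemia line labeled as progenitor cells from bone marrow, grown in horse serum at passages 15 to 18. It is a single line, and fractions of small fragments were pooled into each library. The protocol in the labels gives 4 to 5 days of IL-6. With 1 library per condition, no test between conditions was possible, and all intervals below cover counting error only.

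Satellite DNA consists of short units repeated head to tail in long arrays. In the mouse, the major satellite builds the pericentromeric heterochromatin, a compact and largely silent part of each chromosome that helps to hold sister chromatids together. Such arrays are hard to assemble, so reference genomes contain few of their copies, and stretches of this kind are often masked when DNase I or ChIP signal is analyzed. Predicted genes with Gm names are models from genome annotation.

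The chromosome 9 genes lay inside a single tandem array. On NCBIM37, sequence like the repeat unit ran without a break from 3000003 to 3038419, which is 38417 bp from the first assembled bases of the chromosome. Within the windows of the 12 genes and the sequence between them, 70.9% of bases matched the base 234 bp away, against a median of 31.3% over 1180 shifts. The next best shifts were 468 bp with 58.9% and 58 bp with 56.0%. Mouse major satellite has a unit of the length of the best shift, built from shorter related parts.

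**Figure D1:**
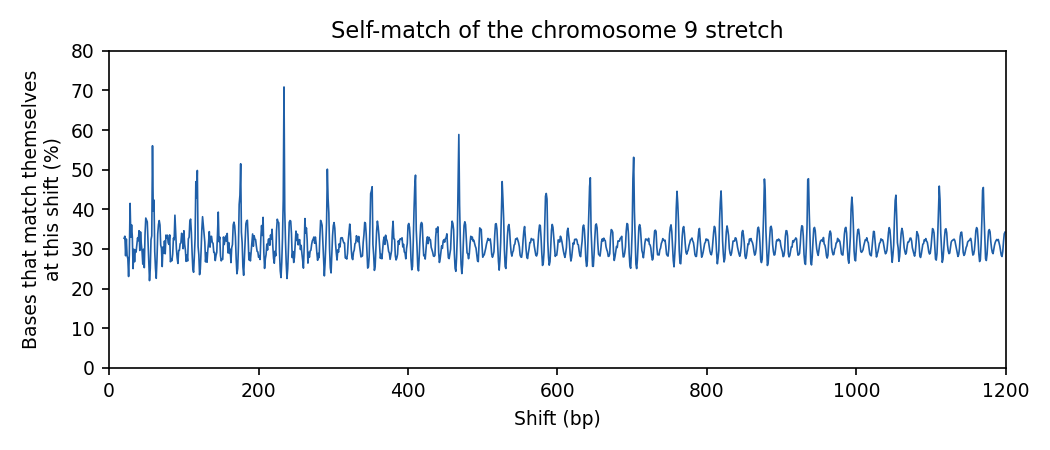
Share of bases in the chromosome 9 stretch of 37800 bp that match the base at each shift (x axis, bp; y axis, percent of bases). The highest peak is at 234 bp with 70.9%, and further peaks stand at 468 bp with 58.9% and 58 bp with 56.0%.

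The unit shown first is the 234-bp stretch on the plus strand of Gm11167 at chr9:3020846-3021079, whose 32-bp words had the most copies in the assembly. The best matching stretch of each of the 3 genes picked for their signal is shown beneath it, so that the copies can be compared. These stretches were chosen by sequence alone, and reads cannot be placed on them. Capitals mark bases that differ from the unit or are extra to it.
Unit in Gm11167: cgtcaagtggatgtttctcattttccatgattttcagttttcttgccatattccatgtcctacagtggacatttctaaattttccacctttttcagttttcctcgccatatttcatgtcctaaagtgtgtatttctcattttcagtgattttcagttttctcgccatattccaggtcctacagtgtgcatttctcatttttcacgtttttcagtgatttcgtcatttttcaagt
Gm10800, chr2:98507235-98507468, minus strand: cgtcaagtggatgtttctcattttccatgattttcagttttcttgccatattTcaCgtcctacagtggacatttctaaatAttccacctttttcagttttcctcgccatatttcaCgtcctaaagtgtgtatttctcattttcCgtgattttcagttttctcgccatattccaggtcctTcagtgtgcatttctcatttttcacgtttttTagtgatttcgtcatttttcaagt
Gm10801, chr2:98503961-98504194, plus strand: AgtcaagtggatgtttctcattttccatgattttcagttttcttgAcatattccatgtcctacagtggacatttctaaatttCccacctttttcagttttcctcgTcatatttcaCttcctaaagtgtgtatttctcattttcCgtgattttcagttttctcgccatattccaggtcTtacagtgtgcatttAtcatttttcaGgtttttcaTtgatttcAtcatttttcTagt
Gm10717, chr9:3025640-3025872, plus strand: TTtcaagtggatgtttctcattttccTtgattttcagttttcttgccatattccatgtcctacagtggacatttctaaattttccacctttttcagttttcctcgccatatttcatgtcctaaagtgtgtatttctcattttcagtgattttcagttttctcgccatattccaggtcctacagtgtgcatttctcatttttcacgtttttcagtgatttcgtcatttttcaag
The copy in Gm10800 differed from the unit by 7 substitutions. That in Gm10801 had 11 substitutions with 1 extra and 1 missing base, and that in Gm10717 had 3 substitutions and 1 missing base. Gm10721 held the unit with 0 differences, at chr9:3014065-3014298. The best copies of the other 9 genes differed by 1 to 8 bases.

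All windows of 11 of the 12 chromosome 9 genes consisted of sequence like the unit (100%), and the windows of Gm10715 at the end of the array did for 86.6%. On chromosome 2 the repeat was present as 4 separate pieces of 168 to 792 bp. They made up 56.6% of the windows of Gm10800 and 31.96% of those of Gm10801. In the assembly as a whole, 298351 bp resembled the unit, of which 73.5% were on pieces not placed on any chromosome. The 14 genes contained 7.51% of it. Only 7 other listed genes held any such sequence, 138 to 805 bp each and at most 0.663% of the windows of the transcript with most windows, and their means were 2.29 to 9.26 reads per window in M1 cells and 3.10 to 11.7 scaled reads in IL-6-treated cells.

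The sequences were also alike in composition. GC content was 34.6% to 37.7% in the 14 genes, against a median of 48.6% in 7743 other spans of 2 to 4 windows, of which 7.74% lay below the highest of the 14. All 14 are annotated as protein coding, with 3 to 5 coding pieces. In 11 of them at least 1 gap between coding pieces was under 10 bp, down to 1 bp in Gm10800. Such a gap was found in 2.53% of 49451 other transcripts with several coding pieces.

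Most of the signal fell on the 2 genes of chromosome 2. The table gives a mean per 700-bp window, in reads for M1 cells and in scaled reads for IL-6-treated cells, where each read counts as 1.03816. Gm10800 (chr2:98506704-98507458, minus strand) had 62474 reads on 2 windows in M1 cells, a mean of 31237, and 47049 reads in IL-6-treated cells, a scaled mean of 24422. This was 4031 times the median of all genes in M1 cells and 3001 times that in IL-6-treated cells, which were 7.75 and 8.14 per window. Gm10801 (chr2:98502394-98504240, plus strand) had 59745 and 44650 reads on 4 windows, with means of 14936 and 11588. They held rank 1 and rank 2 among all genes in both libraries, and the order of the pair was the same in both.

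The chromosome 9 genes spread over a wide range below them. Gm10717 (chr9:3025417-3026387) was the highest, with 1392 reads in M1 cells and 1116 in IL-6-treated cells on 2 windows, or means of 696 and 579.3. Gm17535 followed with 648 and 471 reads and Gm10106 with 645 and 562 reads, each on 2 windows. Gm10722 had 724 and 548 reads, Gm10720 had 671 and 534, Gm10718 had 533 and 405, and Gm10719 had 334 and 249, each on 3 windows. Their means thus lay between 111 and 241 reads per window in M1 cells. Gm11168 had 286 and 241 reads on 2 windows.

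Lower signal was found at the far end of the array and between stronger genes. Gm10715, the last gene, had 168 reads in M1 cells and 95 in IL-6-treated cells, Gm11167 had 88 and 57, and Gm10716 had 70 and 60. Even Gm11167, the lowest gene with reads, had a mean of 29.3 in M1 cells, 3.78 times the median of all genes. Gm10721 (chr9:3013170-3014344) was listed at 0 reads in both libraries, and a count of 0 allows up to 3 reads in each as a one-sided limit. It lies between Gm11168 and Gm10720, which had 286 and 671 reads in M1 cells. The rank correlation of the 13 means between the libraries was 0.99, as a description of genes measured in the same 2 libraries.

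**Figure D2:**
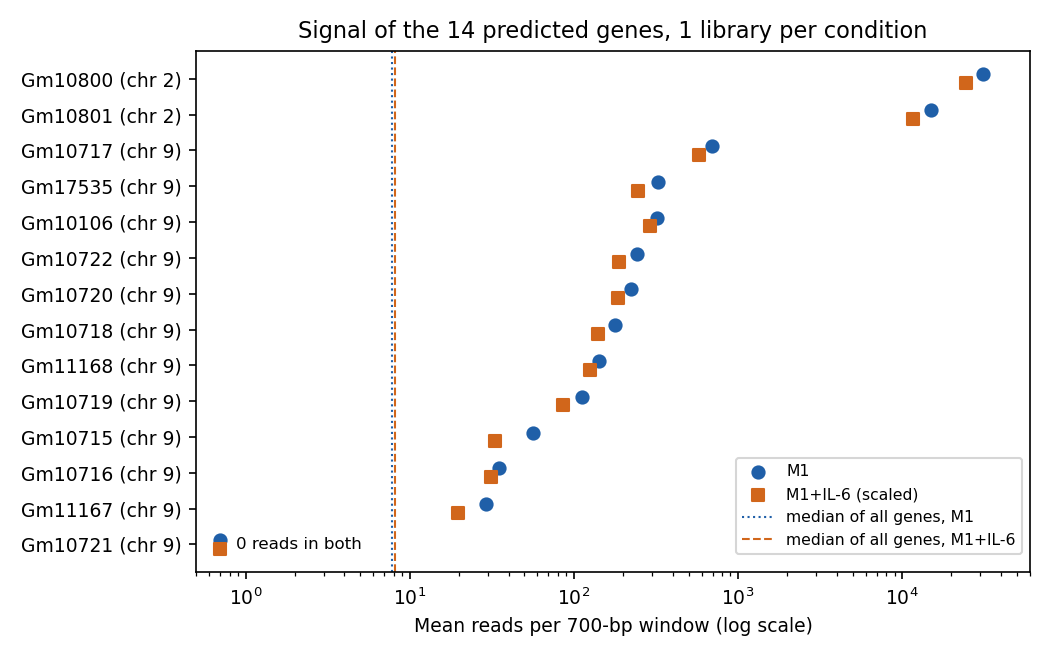
Mean reads per 700-bp window (x axis, log scale) of each of the 14 genes in M1 cells (circles) and IL-6-treated M1 cells (squares, scaled reads), 1 library each, with the medians of all genes as lines at 7.75 and 8.14. Gm10800 and Gm10801 stand above all others at 11588 or more, and Gm10721, with 0 reads, is drawn at the left edge because a log axis has no 0.

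Listed genes beyond the repeats had low signal. 4930433N12Rik, the one other gene listed inside the chromosome 9 limits, starts at 3133927 beyond the array and had means of 3.02 and 2.94. Alkbh8, the first gene past the limit, had means of 2.88 and 2.99. On chromosome 2 the nearest listed genes were Lrrc4c with means of 7.25 and 9.60 and B230118H07Rik with 4.13 and 5.93.

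Measured as shares, the 36 windows made up 0.00299% of the windows of non-overlapping coding spans and held 127752 of 9116294 reads in M1 cells, or 1.401% (95% Clopper-Pearson interval 1.39 to 1.41). In IL-6-treated cells they held 96017 of 8558220 reads, or 1.12% (1.11 to 1.13). The intervals of the shares did not overlap. Gm10800 alone held 0.685% and 0.550% of all reads, and Gm10801 held 0.655% and 0.522%. Together they took up 95.7% of the reads of the 14 genes in M1 cells and 95.5% in IL-6-treated cells. The 12 chromosome 9 genes held 0.0607% of all reads (0.0591 to 0.0623) in M1 cells and 0.0505% (0.0490 to 0.0520) in IL-6-treated cells. Of the reads on coding spans of chromosome 2, 16.1% and 13.01% lay on its 2 genes.

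The ratio of IL-6-treated to untreated cells was similar across the 2 chromosomes. Pooled over the 14 genes it was 0.780 (95% interval 0.774 to 0.787) with the scaling of the table. It was 0.779 (0.772 to 0.786) on chromosome 2 and 0.810 (0.778 to 0.843) on chromosome 9. All 13 genes with reads were lower in IL-6-treated cells, against 48.5% of all 18407 genes that had over 21 reads in 1 library or both. For 10 of the 13 the interval lay below 1, and for Gm10106, Gm11168 and Gm10716 it held 1. The interval lay below 1 for 34.5% of all genes, whose read numbers differ from those of the 13, and an interval narrows with more reads. None of the 13 was at least 2-fold lower, against 13.4% of all genes, and none at least 2-fold higher, against 1.63%. At a fold of 1.5, 1 gene, Gm10715, was lower, against 23.3% of all genes. The direction holds for the scaling of the table. The median of ratios over single windows with a minimum of 22 reads shifts the log2 ratio of every gene alike, by 1.85. All 13 genes were then at least 2-fold higher, as were 83.5% of all genes.

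The genes differed little in this ratio. It was 0.782 (0.773 to 0.791) for Gm10800, 0.776 (0.766 to 0.785) for Gm10801 and 0.832 (0.769 to 0.901) for Gm10717. The highest was 0.905 (0.806 to 1.01) for Gm10106. The intervals of 11 of the 13 genes held the pooled ratio. One of the exceptions was Gm10715 at 0.587 (0.452 to 0.759), the gene at the end of the array whose windows were not all repeat sequence, and the other was Gm10106.

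**Figure D3:**
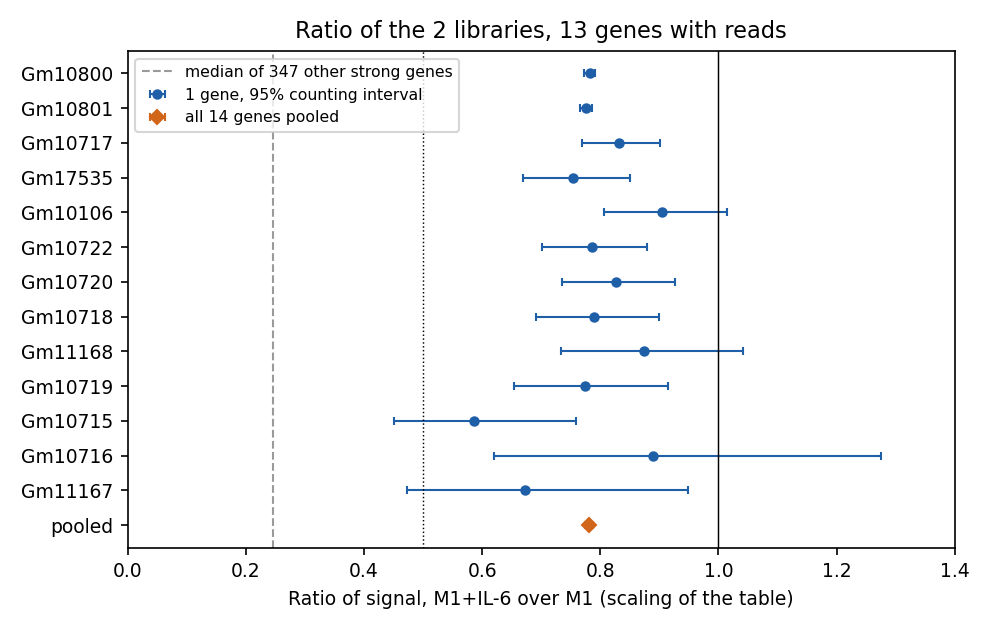
Ratio of signal in IL-6-treated over untreated M1 cells (x axis) for the 13 genes with reads, with 95% counting intervals as bars, and for all 14 pooled. 12 genes lie between 0.672 and 0.905 and Gm10715 at 0.587, while the dashed line shows the median of 347 other genes with at least 100 reads per window in M1 cells, 0.246; the dotted line marks a ratio of 0.5.

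Other genes with strong signal had much lower ratios. Among 347 other genes with a mean of at least 100 reads per window in M1 cells, the median log2 ratio was -2.02 and 345 (99.4%) were at least 2-fold lower. The 10 satellite-rich genes above the same level had log2 ratios of -0.41 to -0.14, with a median of -0.34. The medians thus differed by 1.68, a difference that one common scaling factor leaves as it is. Choosing genes by their IL-6-treated signal gave 16 other genes with at least 100 scaled reads per window, of which 14 were at least 2-fold lower. These values compare 2 libraries, and no test of the difference was made.

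The 2 exceptions among the 347 genes are named here after their values were seen. Sfi1, a centrin-binding protein of the centrosome, lies near the start of assembled chromosome 11 at chr11:3032030-3088966 and had means of 127 and 146 over 82 windows, a log2 ratio of 0.20. Its windows held no sequence like the unit. 3110070M22Rik had means of 138 and 102 over 2 windows, a log2 ratio of -0.43.

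**Figure D4:**
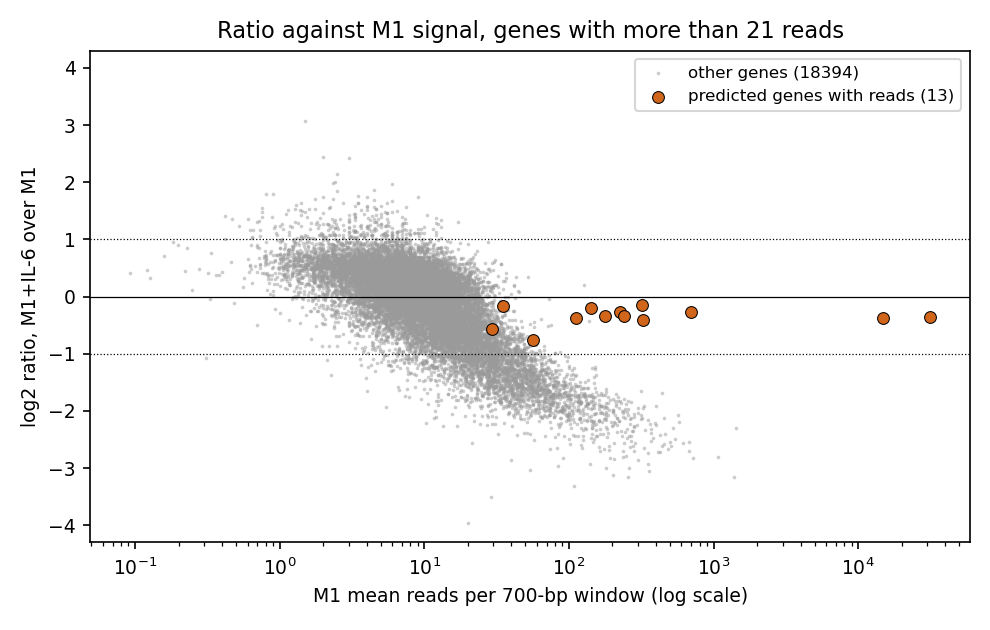
log2 ratio of IL-6-treated over untreated M1 cells (y axis) against mean reads per window in M1 cells (x axis, log scale) for the 18407 genes that had over 21 reads in at least 1 library. The 13 satellite-rich genes with reads (large points) lie between -0.77 and -0.14, while other genes with at least 100 reads per window have a median of -2.02; dotted lines mark a 2-fold difference.

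No other gene came near the strongest pair. The 5 genes closest to Gm10800 by the log10 means of the 2 libraries were C330011M18Rik, Hist1h3g, Hist2h4, Gm7008 and Gm7461. C330011M18Rik, the closest, had 1426 and 280 reads on 1 window, so its mean was 21.9 times lower than that of Gm10800 in M1 cells and 84.0 times lower in IL-6-treated cells. Hist1h3g, a gene for histone H3, had 1375 and 149 reads on 1 window, and Hist2h4, for histone H4, had 1077 and 148. C330011M18Rik, Hist1h3g and Hist2h4 were also the genes with most signal outside the 14 in both libraries. Of the 10 genes with the highest means, 3 were satellite-rich genes in M1 cells and 7 in IL-6-treated cells.

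Signal was unevenly spread within the genes. For the genes with 2 or 3 windows, 1 possible set of window reads was left in each library, except for Gm10722 in M1 cells. The sets follow from the listed mean and SD, and for Gm10720 and Gm10719 also from equal reads on their shared window. The order of the windows along the span is not known. In Gm10800 the windows had 42643 and 19831 reads in M1 cells and 29172 and 17877 in IL-6-treated cells. In Gm10801 1 of the 4 windows had between 46396 and 47781 reads in M1 cells, or 77.7% to 79.98% of the span, and between 32692 and 34293 reads in IL-6-treated cells. The strongest window thus took up most of the reads in both genes.

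The same was found on chromosome 9. Gm10717 had windows of 1093 and 299 reads in M1 cells and 878 and 238 in IL-6-treated cells. In Gm10718 1 window had 463 of 533 reads in M1 cells and 369 of 405 in IL-6-treated cells. The window shared by Gm10720 and Gm10719, at chr9:3017001-3017700, had 26 reads in M1 cells and 20 in IL-6-treated cells, while the strongest window of Gm10720 had 443 and 356. Gm10722 was the most even gene, with 246, 168 and 134 reads in IL-6-treated cells. In M1 cells 2 sets of window reads are possible for it, and its strongest window had 316 or 325 reads.

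As a ratio of SD to mean between windows, the spread ranged from 0.301 in Gm10722 to 1.52 in Gm10715 in M1 cells, with a median of 0.936 over the 13 genes. In IL-6-treated cells the median was 0.949. Counting error alone would make the SD about equal to the square root of the mean, and it was 4.67 to 179 times that value in M1 cells. From M1 to IL-6-treated cells the ratio of SD to mean changed by a factor of 0.657 in Gm10800, 0.942 in Gm10801 and 0.843 in Gm10719, and by 1.00 to 1.08 in the other 10. Among the other genes with at least 100 reads per window in M1 cells and more than 1 window, it was lower in 241 of 287, with a median factor of 0.761.

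Windows without reads matched windows without single-copy sequence in number. Every 32-bp word that overlaps a window was counted on both strands of the assembly. No word with a single copy was found for the 3 windows of Gm10721 and for 1 window each of Gm10715, Gm10716 and Gm11167. The same 4 genes had 3, 1, 1 and 1 windows with 0 reads, in both libraries. In all 13 genes whose windows with 0 reads could be counted, 32 windows in all, this number equaled that of windows with no single-copy word. For Gm10720 and Gm10719 the count also rests on equal reads on their shared window. Without that condition, a set with 0 reads in 1 window would also fit Gm10719 in M1 cells and Gm10720 in IL-6-treated cells. Within a gene, however, the order of the windows is not known. Windows with few single-copy words could still hold many reads. In Gm10722 1 window overlapped only 6 such words, yet each of its windows had at least 171 reads in M1 cells and 134 in IL-6-treated cells. The whole span of Gm11167, with 77 such words, had 88 reads in M1 cells. How the authors placed reads that match several positions is not stated, and its part in these values was not tested.

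Across the 14 genes, signal tended to be higher where more words had a single copy. They made up 36.2% of words in Gm10801, 33.0% in Gm10800 and 23.6% in Gm10717, the 3 genes with the highest means, and 3.61% in Gm11167, the lowest gene with reads. The rank correlation with the mean was 0.75 in M1 cells and 0.76 in IL-6-treated cells (n = 14). Over the 12 chromosome 9 genes alone it was 0.60 and 0.62. These genes share libraries and base composition. The correlations are a description only, because Gm10800, Gm10801 and Gm10717 were chosen by the same signal. Gm10717 is also among the 12, and Gm10721, without reads or single-copy words, counts in both sets. Whether the trend holds without these genes was not tested. Reads per single-copy word also varied between genes. In M1 cells Gm10800 had 132 reads per single-copy word and Gm10801 had 58.2, against 0.392 to 8 in the chromosome 9 genes that have such words. Gm10715 had the lowest value, with 20.1% of its words single copy but a mean of 56.0 reads per window.

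**Figure D5:**
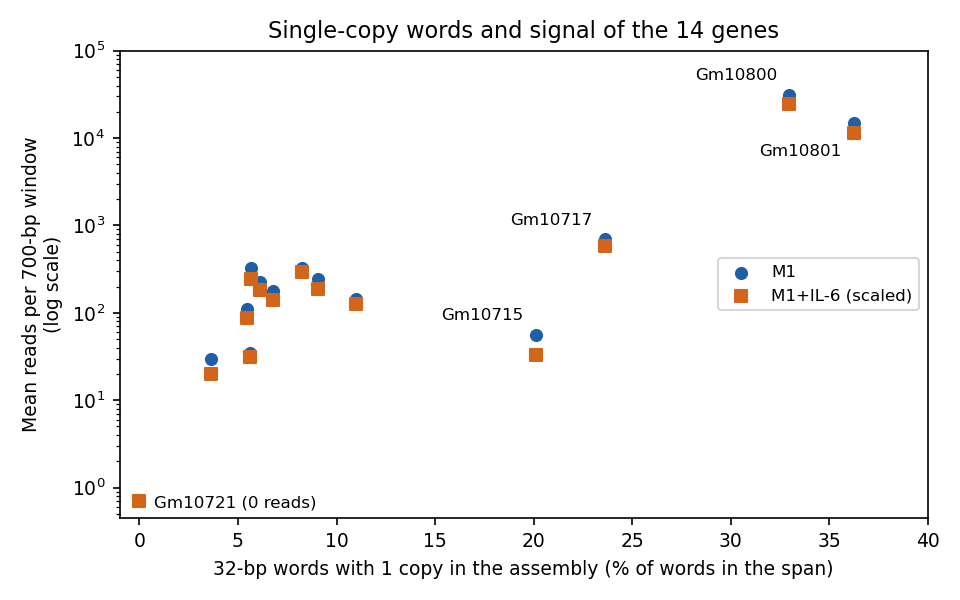
Mean reads per 700-bp window (y axis, log scale) against the percent of 32-bp words of the span that occur once in the assembly (x axis) for the 14 genes in M1 cells (circles) and IL-6-treated cells (squares, scaled reads). Gm10721 has 0% and 0 reads and is drawn at the bottom edge, and Gm10801 and Gm10800 have the highest values on both axes, at 36.2% and 33.0%.

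As a check of the labels, 9 of 10 genes of myeloid and progenitor cells were found by name (Cebpa, Runx1, Myb, Mpo, Ctsg, Ptprc, Csf1r, Itgam and Kit). The name Spi1 was not found, which does not show that this gene is missing under another name. Their median was 14.1 reads per window in M1 cells (range 4.10 to 46.5) and 10.2 scaled reads in IL-6-treated cells (5.45 to 15.2). For 10 genes of other cell types, which were Alb, Ins2, Myh6, Krt5, Neurod1, Cdh1, Gfap, Pax6, Myod1 and Nphs1, the medians were 7.93 (3.09 to 22.1) and 12.3 (4.34 to 26.7). The ranges of the 2 lists overlapped in both libraries, so signal over whole coding spans did not separate them. Non-overlapping coding spans had 7.58 reads per window in M1 cells and 7.12 in IL-6-treated cells before scaling.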

How the data were processed

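Small DNase I fragments of M1 and IL-6-treated M1 nuclei were sequenced as single reads, as the authors' methods state. The legend of the authors' DHS-seq figure names paired-end sequencing instead. After trimming, the authors mapped reads to NCBIM37 with BWA, whose version is not given in the sources used here. For each of 55432 transcripts, the deposited table lists signal as mean and SD per 700-bp window touched by the coding span. Mean times number of windows was within 0.0021 of a whole number of reads in all rows, with 1 read worth 1.03816 in the IL-6 column. A gene was represented by its transcript with most windows. Shares use listed spans that share no window. Single windows are all sets of whole numbers with the listed sum and SD. For Gm10720 and Gm10719, only sets that agree on their shared window were kept. The recovery of single windows was tested on 400 simulated short spans, all with far fewer reads than Gm10800 and Gm10801. The true set was among the solutions in all 400 and was the single solution in 351. In 190 of 200 simulated ratios the interval held the true ratio. The shares were not simulated. Log2 ratios add 0.5 reads. Sequence like the unit was found with blastn 2.17.0 (word size 11, E-value 1e-05). Words of 32 bp were counted over the whole assembly, and positions and coding pieces come from GENCODE M1, whose spans equal those of the table for all 14 genes.

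The genes and lists were chosen with earlier results of these data known. The text names all 14 genes, other genes in the same stretches, the 3 highest other genes in each library and the 5 nearest to Gm10800. Sfi1, 3110070M22Rik and the genes at the edges of the stretches were added after their values were seen. Reads between coding spans were not analyzed here. Alternatives covered scaling, added reads, pooling, denominator and measure of spread. Scripts ran in Python 3.11.15 with scipy 1.17.1, pandas 2.3.3 and numpy 2.4.6. Sequence was read with pysam 0.24.0, and plots were drawn with matplotlib 3.10.9.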

Additional observations from a re-analysis of the deposited data

How the results depend on the processing

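No paired analysis was possible because the untreated and treated cells were sequenced once each and none of the results comes from a test. All alternatives were among those planned. The direction depended on the scaling, and among the scalings only the median of ratios reversed it. That scaling uses single windows with a minimum of 22 reads, while coding spans had 7.58 reads per window in M1 cells. With the median of ratios over 518 single windows, the pooled log2 ratio was 1.49 in place of -0.36, and those of the 10 genes whose interval lay below 1 were 1.49 for Gm10800, 1.48 for Gm10801, 1.58 for Gm10717, 1.44 for Gm17535, 1.498 for Gm10722, 1.57 for Gm10720, 1.504 for Gm10718, 1.48 for Gm10719, 1.08 for Gm10715 and 1.28 for Gm11167. The number of the 14 genes at least 2-fold higher was then 13 in place of 0, beside 83.5% of all genes, since this scaling shifts every gene by 1.85. The pooled log2 ratio was -0.41 without scaling, -0.32 with the total over coding spans, -0.32 with that total without the 14 genes and -0.30 over the chromosome 9 genes alone. With a fold of 1.5, 1 of the 14 genes was lower in place of 0, against 23.3% of all genes. Apart from the median of ratios, 72 of 78 alternative ratios of single genes stayed within their counting intervals, and the other 6 were those of Gm10800 and Gm10801 under the 3 other scalings.

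The share of reads was 1.37% in M1 cells and 1.10% in IL-6-treated cells over the sum of 1 transcript per gene, and 1.36% and 1.08% for Gm10800, Gm10801 and Gm10717 alone. Over coding spans of the same chromosome it was 16.1% and 13.01% on chromosome 2 and 0.812% and 0.653% on chromosome 9, by construction. The SD over the square root of the mean had medians of 12.9 and 12.7. Each of the 14 genes has 1 listed transcript, so the choice of transcript changed nothing. For the genes with fewest reads, Gm11167 and Gm10716, depth limits the ratio to intervals of 0.473 to 0.949 and 0.620 to 1.27.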
